A study of Rattus norvegicus with 12 samples.

Results

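The genes described here are the cyclins, cyclin-dependent kinases (CDKs) and their inhibitors, the genes with Cdc and Mcm names, the Aurora and Bub kinases and the kinesins, together with Pcna, Plk1 and Rrm2, in the livers of rats that drank ethanol or water. They were chosen by name from the deposited table and had to have an RPKM (reads scaled to the length of the transcript and to the mapped reads of the library) above 0 in at least 1 liver. A total of 149 listed transcripts under 95 gene names met the name rule, and 133 of them were above 0. Ccna1, Ccnb3 and Kif2b were listed at 0 in every liver, and the remaining 92 genes, each represented by its transcript with the highest mean RPKM, are the subject of the text, out of 21718 transcripts above 0 among 34391 listed. Mki67, Top2a and Birc5, which the rule also gives by name, are under none of these names in the table and were not analysed here as members.

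All 12 animals were female rats of the inbred alcohol-preferring iP10a strain, a line bred for its voluntary drinking. For 23 weeks, 6 EtOH animals could choose between water and bottles with 10, 20 and 30% ethanol (v/v), and 6 control animals had water, all with free access to food. The rats were 38 weeks old at collection, except EtOH animal 6, which was 39 weeks old. Poly(A) RNA of each liver was sequenced as 1 library per animal, and the comparison of EtOH with control livers asks how long, voluntary drinking changes the hepatic transcriptome.

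Cells enter division when D and E cyclins switch on their CDKs, license replication origins with the MCM helicase, copy their DNA in S phase, and then build a spindle under cyclin B and CDK1. The anaphase-promoting complex (APC/C), activated by Cdc20 and later by Fzr1, destroys the cyclins and ends mitosis, while CDK inhibitors of the CIP and INK4 families hold cells in G1. Kinesins are microtubule motors, of which some work in the spindle and midbody and others carry cargo in cells that do not divide. In the adult liver most hepatocytes rest outside the cycle, and dividing cells, hepatocytes or others, are rare, so transcripts of mitosis are expected at low levels in RNA of whole liver. In such RNA, fewer cells that express a gene and less RNA per cell cannot be told apart.

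The RPKM values stand in ratios of whole reads, so the reads behind each value could be recovered. They came to 2610581 to 4318502 per control liver and 3945995 to 6030484 per EtOH liver, and the EtOH libraries were deeper (two-sided exact permutation test, p = 0.011, n = 6 each). Reads assigned to the 92 genes numbered 3758 to 5611 per control liver and 4875 to 7439 per EtOH liver. Hepatocyte markers were at the top of all livers, with Alb at 70352 ± 9238 RPKM in controls and 79085 ± 8514 in EtOH livers (SD, n = 6 each). The test was limma over all 21718 transcripts, run on quantile-normalized log2(RPKM + 0.5), and calls were made at an adjusted p below 0.05. Of these transcripts 2.42% were called, 1.13% as higher and 1.29% as lower in EtOH livers (245 and 281). Without the quantile step the calls shifted toward lower values (126 higher and 648 lower), and the median log2 fold change of those whose mean RPKM reached 1 moved from 0.0078 to -0.082, so a gene can have a lower mean RPKM in EtOH livers and a log2 fold change near 0.

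Of the 92 genes, 3 were called, which is 3.26% of them and close to the 2.42% of all transcripts. Ccnb1, the mitotic cyclin B1, and Rrm2, the regulated subunit of ribonucleotide reductase, rose in EtOH livers, and the kinesin Kif26b fell. The other 89 did not pass the test. The median log2 fold change of the 92 genes was 0.03, against 0.0002 for all transcripts, and 53 of the 92 (57.6%) had a value above 0, against 50.04%. At an unadjusted p below 0.05, which 15.5% of all transcripts reached, 18 of the 92 genes were higher and 5 lower in EtOH livers, and 8.07% of all transcripts were higher at that level. The 18 were spread unevenly over the roles, as the plot of fold changes by role shows.

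**Figure D1:**
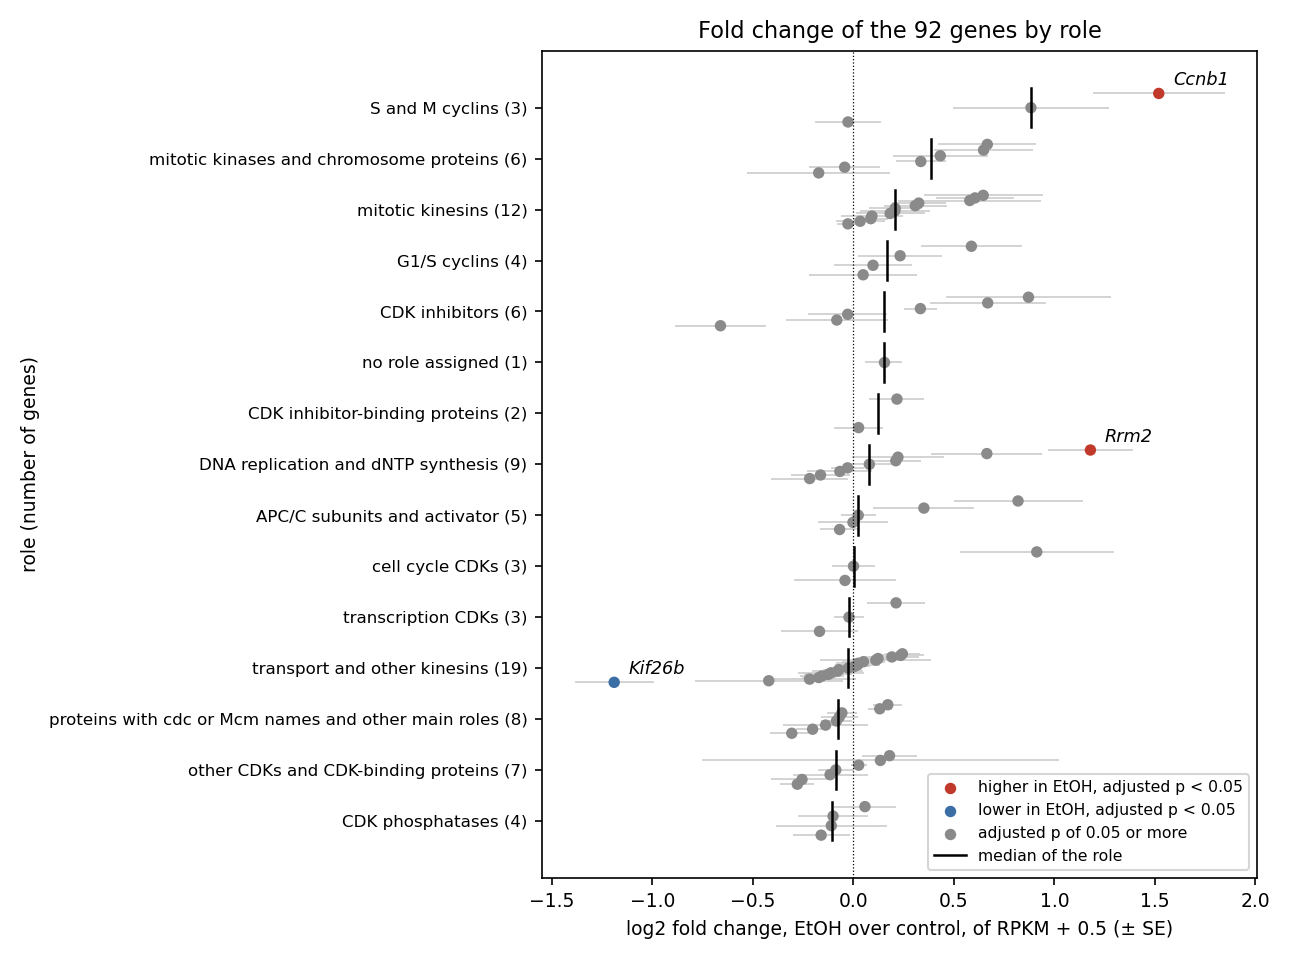
Log2 fold change (EtOH over control, of RPKM + 0.5, quantile normalized, with its standard error) of the 92 genes, 1 point per gene, in 15 roles ordered by their median, which the black line marks. Ccnb1 and Rrm2 (red) lie above 1, Kif26b (blue) lies below -1, and the S and M cyclins, mitotic kinases and mitotic kinesins have the highest medians, at 0.88, 0.38 and 0.21.

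Ccnb1 (chromosome 2, 31574601 to 31581786 as listed, 1485 nucleotides), the cyclin that switches on CDK1 at entry into mitosis, was near the detection limit in controls. Its RPKM in control animals 1 to 6 was 0.463, 0.173, 0, 0.391, 0 and 0.284, and in EtOH animals 1 to 6 it was 3.85, 1.07, 2.62, 0.919, 1.23 and 0.744. Every EtOH liver lay above every control liver, with EtOH animals 1 and 3 far above the rest. Means were 0.218 ± 0.196 and 1.74 ± 1.23 (SD, n = 6 each), from 7 control reads and 82 EtOH reads in all, with a log2 fold change of 1.52 ± 0.33 (SE) and an adjusted p of 0.034 by limma (two-sided exact permutation test of the means, p = 0.0022, the smallest that 6 against 6 allows). In controls 3 and 5, which had no read of this transcript, 3 reads would be worth 0.597 and 0.492 RPKM, below the lowest EtOH value. A second listed Ccnb1 transcript had 1 read in all, in control 3 (0.227 RPKM). The call was not stable, and the adjusted p rose above 0.05 without control animal 2, 3, 4 or 5 or EtOH animal 2, 3 or 5 (0.054 to 0.071, limma).

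Cdk1 and Cdc20, which act with and on cyclin B1, did not pass the test. Cdk1, the mitotic kinase that cyclin B1 activates, was at 0, 0.216, 0.249, 0.977, 0.205 and 1.25 RPKM in controls 1 to 6, and at 3.03, 1.34, 1.64, 0.862, 1.02 and 0.372 in EtOH animals 1 to 6. EtOH animal 1 was again the highest and the groups overlapped through controls 4 and 6 and EtOH animal 6. The log2 fold change was 0.91 ± 0.38 (SE, limma adjusted p = 0.27). Cdc20, the APC/C activator of mitosis, had means of 1.15 ± 0.301 and 2.65 ± 1.37 RPKM (SD, n = 6 each), with EtOH animals 1 to 4 at 4.34, 3.77, 2.86 and 2.82 and animals 5 and 6 at 0.802 and 1.31, inside the control range of 0.909 to 1.68. Its log2 fold change of 0.82 ± 0.32 did not pass the test (limma adjusted p = 0.23). Of the other 4 APC/C members none passed the test, and the most abundant, Cdc16, was at 10.6 ± 1.02 and 9.36 ± 1.41 RPKM (limma adjusted p = 0.77).

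The represented transcript of Ccna2, the cyclin of S phase and early mitosis, had 4 control reads and 43 EtOH reads, and these EtOH reads came from animals 1 to 4 (0.653, 1.83, 1.38 and 1.05 RPKM), while animals 5 and 6 were at 0 (named after its values were seen). A second Ccna2 transcript had 5 control and 7 EtOH reads, 1 of them in each of EtOH animals 5 and 6, and summed over both transcripts the gene was at 0.225 ± 0.139 and 0.964 ± 0.698 RPKM (SD, n = 6 each). For the represented transcript the log2 fold change was 0.88 ± 0.39 (SE, limma adjusted p = 0.29). Ccnb2 did not share the pattern, with means of 0.152 and 0.159 RPKM from 5 and 7 reads.

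Among the 6 mitotic kinases and chromosome proteins, 3 were higher at an unadjusted p below 0.05 and none was called by limma. Aurkb, the kinase of the chromosomal passenger complex, had means of 0.271 ± 0.185 and 0.806 ± 0.49 RPKM (SD, n = 6 each) and a log2 fold change of 0.67 ± 0.24 (limma adjusted p = 0.2), with EtOH animal 3 at 1.75 and the next liver at 0.799. Plk1, which drives spindle assembly and mitotic entry, was read in 3 control and 6 EtOH livers, with 7 and 34 reads in all, and its log2 fold change was 0.65 ± 0.25 (limma adjusted p = 0.22). Bub1b, the spindle checkpoint kinase BubR1, had 7 and 30 reads and a log2 fold change of 0.34 ± 0.12 (limma adjusted p = 0.2, named after its values were seen). Aurka, the centrosomal Aurora kinase, was at 1.62 ± 0.404 and 1.58 ± 0.35 RPKM, with a log2 fold change of -0.04 ± 0.18, which turned positive under median-ratio scaling (0.04).

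Of the 12 mitotic kinesins, 11 had a log2 fold change above 0 and none was called by limma, with 3 at an unadjusted p below 0.05. Kif20a, which works in the midbody at cytokinesis, led the role in level with 0.508 ± 0.29 and 1.18 ± 0.724 RPKM (SD, n = 6 each) and had a log2 fold change of 0.65 ± 0.3 (limma adjusted p = 0.32). Kif11, the motor that pushes spindle poles apart, had 13 control and 57 EtOH reads and a log2 fold change of 0.6 ± 0.19 (limma adjusted p = 0.13), and Kif23, a motor of the central spindle, had 4 and 24 reads. For Kif23 every EtOH liver was above every control liver, but narrowly, since EtOH animal 3 was at 0.0898 and the highest control at 0.0889 RPKM, and the log2 fold change was 0.33 ± 0.13 (limma adjusted p = 0.26). Both were named after their values were seen. The listed span of Kif20a overlaps that of Cdc23 only at its end, from 27108516 to 27108530. Reads in this short shared part could belong to either, since the sources used here do not state whether the libraries kept the strand of the RNA.

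Put side by side, the S and M cyclins, the mitotic kinases, the mitotic kinesins, Cdk1 and Cdc20 make 23 cell division genes, a grouping made after their values were seen and given here as a description without a test. Of these, 19 had a log2 fold change above 0, with a median of 0.33, while the other 69 genes split 34 above to 35 below with a median of -0.002. Of all 10632 transcripts with a mean RPKM below 1, 48.8% were above 0, but these were lower in level (median 0.121 RPKM) than the 23 genes (median 0.346), and the part of the level in the pattern was not tested. The summed RPKM of the 23 genes was 6.78, 7.72, 4.89, 10.1, 6.8 and 10.1 in controls 1 to 6, and 26.1, 17.7, 19.7, 14.6, 9.6 and 8.74 in EtOH animals 1 to 6. EtOH animals 1 to 4 lay above every control, whereas EtOH animals 5 and 6 lay within the control range. EtOH animal 1 was the highest of all 12 livers for 12 of the 23 genes and EtOH animal 3 for 5, while animals 5 and 6 were the highest for 0. Leaving out EtOH animal 1 left 19 of 23 above 0 with a median of 0.28.

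**Figure D2:**
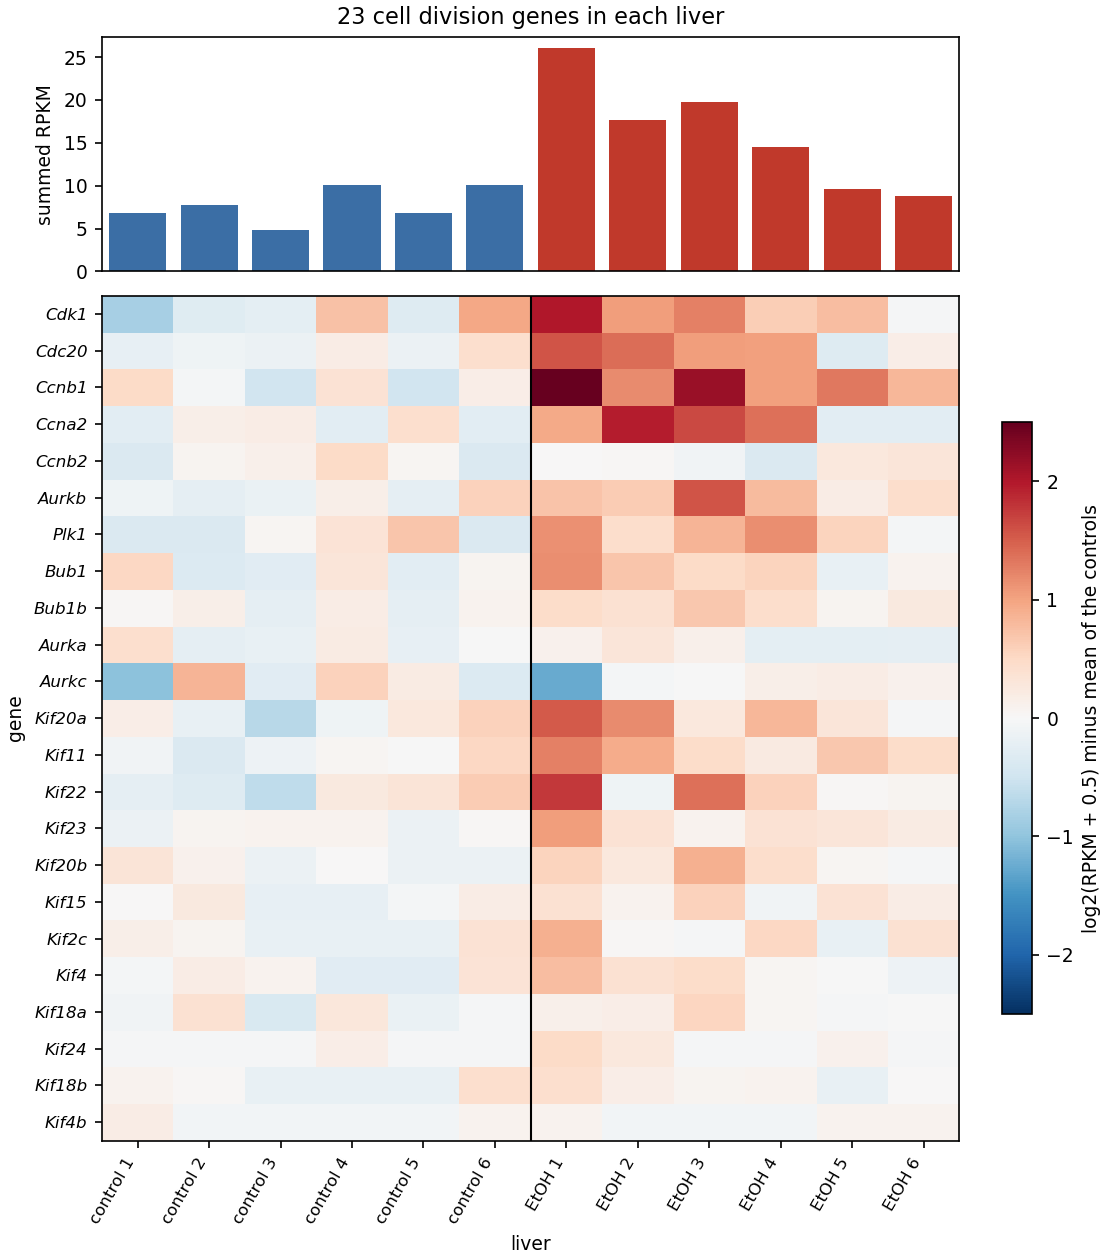
Top, summed RPKM of the 23 cell division genes in each liver (blue bars control, red bars EtOH). Bottom, log2(RPKM + 0.5) of each gene in each liver minus the mean of the 6 controls: red cells run through most genes in EtOH animals 1 to 4 and few in EtOH animals 5 and 6, and the Ccnb2, Aurka, Aurkc and Kif4b rows show no such shift.

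Promoters of 5 of these genes are shown because most of the 23 shared a log2 fold change above 0, and that of Kif26b because the gene fell, a choice made after values and matches were seen. Many genes of mitosis carry a cell cycle homology region (CHR, searched as TTTGAA or TTCGAA) near the start of transcription, bound by the DREAM complex, which represses them in resting cells, together with CCAAT boxes (searched as CCAAT) bound by NF-Y. Windows around the start site from RefSeq (build GRCr8) were found for 68 of the 92 genes, 18 of them cell division genes, and were searched on both strands for these letters and for the E2F motif (TTTGGCGC or TTTCCCGC), all chosen after the values were seen. A CHR stood in 10 of the 18 (55.6%), a CCAAT box in 12 (66.7%) and both in 8 (44.4%). Of all 33469 windows of that length the shares were 19.7%, 37.5% and 7.95%, and of the 50 other genes they were 12.0%, 42.0% and 6.0%. The E2F letters searched stood in 1 of the 18 and 4 of the 50, against 1.45% of all windows. Other spellings of the CHR and E2F motifs were not searched, such as TTTCGCGC, which the Cdk1 window holds. A window without a match can therefore still hold such a site. A match is a run of letters and not a measured site. In the sequences below, 5′ to 3′, capitals mark CHR and CCAAT letters on either strand, and no matches overlap.
Ccnb1, chr2:33655176-33655475, minus strand: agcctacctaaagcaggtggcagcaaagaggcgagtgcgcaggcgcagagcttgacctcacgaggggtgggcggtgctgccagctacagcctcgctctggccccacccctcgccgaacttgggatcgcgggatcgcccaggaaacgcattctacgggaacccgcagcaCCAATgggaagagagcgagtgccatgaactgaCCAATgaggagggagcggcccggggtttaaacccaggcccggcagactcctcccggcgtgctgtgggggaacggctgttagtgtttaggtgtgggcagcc
Cdk1, chr20:19265043-19265342, plus strand: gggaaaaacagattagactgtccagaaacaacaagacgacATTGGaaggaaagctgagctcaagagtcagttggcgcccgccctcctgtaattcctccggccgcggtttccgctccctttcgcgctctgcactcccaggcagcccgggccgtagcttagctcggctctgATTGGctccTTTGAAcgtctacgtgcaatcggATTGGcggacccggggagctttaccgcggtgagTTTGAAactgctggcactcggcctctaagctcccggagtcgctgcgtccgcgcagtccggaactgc
Cdc20, chr5:137255750-137256049, minus strand: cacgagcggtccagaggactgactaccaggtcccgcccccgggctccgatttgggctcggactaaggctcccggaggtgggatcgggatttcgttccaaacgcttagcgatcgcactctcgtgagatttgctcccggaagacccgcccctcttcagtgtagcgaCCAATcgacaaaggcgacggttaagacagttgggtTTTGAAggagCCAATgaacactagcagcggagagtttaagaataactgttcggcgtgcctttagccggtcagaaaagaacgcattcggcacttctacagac
Plk1, chr1:186147408-186147707, plus strand: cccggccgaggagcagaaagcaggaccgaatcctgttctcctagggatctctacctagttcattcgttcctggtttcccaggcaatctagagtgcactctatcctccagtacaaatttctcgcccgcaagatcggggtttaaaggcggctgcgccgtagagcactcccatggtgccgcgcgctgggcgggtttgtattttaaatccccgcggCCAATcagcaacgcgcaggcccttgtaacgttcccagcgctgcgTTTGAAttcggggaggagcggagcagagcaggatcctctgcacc
Kif23, chr8:71320535-71320834, minus strand: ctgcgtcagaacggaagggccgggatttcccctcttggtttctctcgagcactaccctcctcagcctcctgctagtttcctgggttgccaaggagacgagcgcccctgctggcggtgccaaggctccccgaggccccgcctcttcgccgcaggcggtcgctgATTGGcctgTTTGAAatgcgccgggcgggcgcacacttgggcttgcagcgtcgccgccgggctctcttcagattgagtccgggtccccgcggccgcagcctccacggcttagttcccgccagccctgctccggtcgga
Kif26b, chr13:92815177-92815476, plus strand: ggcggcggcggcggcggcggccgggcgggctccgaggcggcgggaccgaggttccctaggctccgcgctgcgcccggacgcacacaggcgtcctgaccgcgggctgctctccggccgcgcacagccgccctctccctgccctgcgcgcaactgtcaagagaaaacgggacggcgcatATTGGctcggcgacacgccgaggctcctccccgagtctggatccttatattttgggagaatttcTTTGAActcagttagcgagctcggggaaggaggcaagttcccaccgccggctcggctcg
The Ccnb1 window holds 2 CCAAT boxes and none of the CHR letters searched, that of Cdk1 holds 2 CHR and 3 CCAAT matches, that of Cdc20 holds 1 and 2, and those of Plk1, Kif23 and Kif26b hold 1 of each. The windows of Kif20a and Kif11, not printed, hold none of the CHR letters searched and 3 and 1 CCAAT matches. That of Ccnb2, whose log2 fold change was -0.03, holds 2 CHR and 3 CCAAT matches.

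Genes of mitosis outside the name rule also lay mostly above 0. Of a list of 42, 35 were above 0 and tested, 31 of these had a log2 fold change above 0, and the median was 0.4. None was called by limma, 16 were higher and 2 lower at an unadjusted p below 0.05. In Ccnf, the F-box cyclin, EtOH livers (0.412 to 0.703 RPKM) did not overlap controls (0 to 0.382), and its log2 fold change was 0.58 ± 0.15 (SE, limma adjusted p = 0.073). Smc4, a condensin subunit and one of the better read genes of the list, had 2.17 and 3.65 RPKM from 209 and 481 reads (log2 fold change 0.68, limma adjusted p = 0.079), and Cks1b, the highest of the list, had 9.81 and 7.55 RPKM (log2 fold change -0.25, limma adjusted p = 0.3). A transcript listed as TOP2A_RAT, which the name rule did not take and which was chosen after its values were seen, had 0.146 ± 0.0771 and 0.975 ± 0.911 RPKM (SD, n = 6 each), with EtOH animal 1 at 2.59 and EtOH animal 6 at 0 (log2 fold change 0.93, limma adjusted p = 0.21). Its second listed transcript, of nearly the same length, had 0.182 and 0.234 RPKM. Ccnf and Smc4 were likewise picked after their values were seen.

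The 9 genes of DNA replication and deoxynucleotide supply were spread around 0, with a median of 0.08 and 5 above 0. Rrm2 (chromosome 6, 42350541 to 42355429 as listed, 1224 nucleotides), which supplies deoxynucleotides and is made mainly in S phase, was the only one called. Its RPKM was 0, 0.419, 0.242, 0.237, 0.199 and 0.345 in controls 1 to 6 and 1.73, 1.3, 1.46, 1.39, 0.661 and 0.902 in EtOH animals 1 to 6. All EtOH livers lay above all controls, and EtOH animals 5 and 6 were again the lowest of their group. Means were 0.24 ± 0.143 and 1.24 ± 0.392 (SD, n = 6 each) from 7 and 48 reads, with a log2 fold change of 1.18 ± 0.21 (SE) and a limma adjusted p of 0.016, and the call held in each of the 12 fits that left out 1 liver (adjusted p up to 0.04, limma). Control 1 had no read, and 3 reads there would be worth 0.842 RPKM, which is above EtOH animal 5.

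The subunits of the MCM helicase that the table gave as members showed no call by limma. Mcm7, the highest, had 3.65 ± 0.792 and 3.05 ± 0.368 RPKM, Mcm2 had 1.6 ± 0.391 and 1.51 ± 0.262, and Mcm6 had 1.18 ± 0.452 and 1.47 ± 0.457 (SD, n = 6 each, limma adjusted p = 0.65, 0.87 and 0.66). Mcm10, which helps fire licensed origins, had the next largest log2 fold change of the 9 after Rrm2, with 0.627 ± 0.402 and 1.28 ± 0.518 RPKM (log2 fold change 0.66 ± 0.28, limma adjusted p = 0.26). Pcna, the sliding clamp of the replication fork, ranged from 8.56 to 13.8 RPKM in controls and from 9.91 to 13.1 in EtOH livers, with a log2 fold change of 0.08 ± 0.11 that turned negative without normalization between livers (-0.05). Mcm3ap, which shares a name with the helicase but works in export of mRNA from the nucleus, was lower in every EtOH liver (3.88 to 4.42) than in every control (4.69 to 5.55), with a log2 fold change of -0.2 ± 0.08 (limma adjusted p = 0.25). The listed span of Mcm7 overlaps that of Ap4m1.

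Outside the name rule, 34 of 43 listed genes of replication and S phase were tested and none was called by limma. Their median log2 fold change was -0.02, 15 of the 34 were above 0, and 2 were higher and 0 lower at an unadjusted p below 0.05. The mitosis list and the replication list differed in their medians, 0.4 against -0.02, and this difference was not tested.

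Of the cyclins of G1 and entry into S phase, Ccnd1 was the only abundant member. It was at 20.3, 10.9, 7.3, 7.54, 8.19 and 16.6 RPKM in controls 1 to 6 and at 20.07, 11.8, 15.3, 17.6, 13.8 and 14.5 in EtOH animals 1 to 6. Controls 1 and 6 reached the level of the EtOH livers, and the log2 fold change of 0.59 ± 0.25 did not pass the test (limma adjusted p = 0.28). Ccnd2, Ccne1 and Ccne2 had mean RPKM between 0.17 and 1.6 in both groups, and the represented transcript of Cdk2, the partner of cyclin E, had 2.29 ± 0.977 and 2.12 ± 0.65 (limma adjusted p = 0.95). A second Cdk2 transcript had 2.144 and 1.455 RPKM, and summed over both the gene was at 4.43 ± 0.819 and 3.58 ± 0.906 (SD, n = 6 each).

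Among the CDK inhibitors, Cdkn1b (p27, of the CIP family), which restrains G1 CDKs, came nearest to a call. Control livers had 9.5 to 11.7 RPKM, with a median of 10.6, and EtOH livers 10.4 to 15 with a median of 12.4, and EtOH animal 1, the liver with the most division transcripts, was the lowest EtOH liver. The log2 fold change was 0.33 ± 0.08 (SE, limma adjusted p = 0.052). The gene did not pass in 21 of 23 alternatives (adjusted p up to 0.23, and up to 0.11 with 1 liver left out), and passed by limma without EtOH animal 1 (0.39, adjusted p = 0.022) and when testing was limited to a mean RPKM of 1 or more (adjusted p = 0.034). Cdkn1a (p21), the p53 target, had 6.08 ± 1.33 and 5.55 ± 2.08 RPKM and a log2 fold change of -0.08 ± 0.25 (limma adjusted p = 0.9). Of the INK4 family, which blocks CDK4 and CDK6, Cdkn2c had 0.528 and 1.1 RPKM (log2 fold change 0.67, limma adjusted p = 0.29), Cdkn2b had 0.779 and 0.347 (log2 fold change -0.66, limma adjusted p = 0.16), and Cdkn2a rested on 1 read in each group. Cdkn3, a phosphatase that acts on CDKs, had 11 and 37 reads, with EtOH animal 1 the highest at 3.67 RPKM (log2 fold change 0.87, limma adjusted p = 0.34).

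Regulators upstream of these genes gave 1 call. Of 22 tested E2F, RB and DREAM genes, Rbl2 (p130), the pocket protein of the DREAM complex in resting cells, rose from 8.17 ± 1.2 to 11.2 ± 1.58 RPKM (SD, n = 6 each) with a log2 fold change of 0.55 ± 0.11 (limma adjusted p = 0.027), and 2 others were lower at an unadjusted p below 0.05. Of 16 tested p53 target and G1 arrest genes, 0 were called by limma, 2 were higher and 3 lower at an unadjusted p below 0.05, and the median was -0.08. The highest of them, Ei24, had 109.7 ± 5.41 and 113.1 ± 9.21 RPKM (log2 fold change 0.21, limma adjusted p = 0.052).

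Genes that share the Cdc and Cdk names but serve other functions were the abundant ones. Cdk2ap2 (Doc1r), a CDK2-binding protein, was lower in every EtOH liver (56 to 65.7 RPKM) than in every control (70.7 to 109.6), with means of 84.1 ± 14.1 and 61.5 ± 4.52 (SD, n = 6 each). Its log2 fold change was -0.28 ± 0.09 after quantile normalization (limma adjusted p = 0.12) and -0.44 without it (adjusted p = 0.028). Cdc34, a ubiquitin-conjugating enzyme, was at 22.3 ± 3.47 and 16.1 ± 2.07 RPKM, with -0.31 ± 0.11 (limma adjusted p = 0.18) and -0.45 without normalization (adjusted p = 0.043). No scaling turned the direction of either. Cdc42, a GTPase of cell polarity, was at 79.3 ± 4.73 and 80.4 ± 6.96 RPKM, Cdc37, the kinase cochaperone of Hsp90, at 46.7 ± 7.05 and 38.7 ± 3.32, and Cdk9, the kinase of transcription elongation, at 18.4 ± 2.05 and 16.3 ± 1.6, none of them called by limma (adjusted p = 0.27, 0.65 and 0.91).

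None of 9 further genes with Cdk, Cdkn and Cdc names was called by limma, and each was above 0 in all 12 livers. Cdk7, which activates other CDKs, was at 10.5 ± 1.88 and 9.58 ± 1.03 RPKM, and Cdc25a, the phosphatase that releases CDK2, at 2.52 ± 0.437 and 2.17 ± 0.377 (SD, n = 6 each, limma adjusted p = 0.999 and 0.65). Cdc14b, a phosphatase of mitotic exit, had 3.41 ± 0.809 and 3.41 ± 0.712 RPKM. Of the binding proteins, Cdk2ap1 had 30.9 ± 2.91 and 26.1 ± 2.98, Cdkn2aip 6.22 ± 1.33 and 6.74 ± 0.924, and Cdkn2aipnl 7.74 ± 1.41 and 7.21 ± 1.07 RPKM. Cdk12, a kinase of transcription, had 4.05 and 4.41 RPKM, and Cdc123, an assembly factor of translation initiation, 15.4 ± 2.43 and 13.1 ± 1.22. Cdk105, which RefSeq gives as an older symbol of Nsa2, a ribosome biogenesis factor, had 18.3 ± 1.91 and 18.3 ± 2.06 RPKM.

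For Cdk16, a kinase of the cytoplasm, the choice of transcript mattered. Its represented transcript ranged from 0 to 12 RPKM in controls and from 0.251 to 10.3 in EtOH livers, with the largest standard error of the 92 genes, 0.89. Summed over its 3 listed transcripts the gene was steady, from 8.35 to 12.4 RPKM over all 12 livers, with means of 9.89 ± 1.54 and 9.57 ± 1.11 (SD, n = 6 each). Of the 92 genes, 29 had further transcripts above 0, and 0 of these 41 transcripts were called by limma. At an unadjusted p below 0.05 there were 2, both higher and both of Kif1b.

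Groups that did not overlap were found for 6 of the 92 genes. The EtOH livers were all higher for Ccnb1, Rrm2 and Kif23, against 0.677% of all transcripts, and all lower for Kif26b, Cdk2ap2 and Mcm3ap, against 2.43%.

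Kif26b (chromosome 13, 94184946 to 94606095 as listed, 6778 nucleotides) was the only called member of the 19 transport and other kinesins, and the only member called as lower in EtOH livers. It encodes a large kinesin-11 family protein known for binding microtubules without moving along them and for roles in cell adhesion and in kidney development. Its RPKM was 0.406, 1.25, 1, 0.685, 1.33 and 0.374 in controls 1 to 6 and 0.125, 0.0336, 0.132, 0.126, 0.0597 and 0.0652 in EtOH animals 1 to 6. The lowest control stood well above the highest EtOH liver, although the controls varied among themselves. Means were 0.841 ± 0.416 and 0.0902 ± 0.0424 (SD, n = 6 each), 9.32-fold lower in EtOH livers, from 129 and 20 reads, with a log2 fold change of -1.19 ± 0.2 (SE) and a limma adjusted p of 0.012. The call held in each of the 12 fits that left out 1 liver (adjusted p up to 0.034, limma). As the values are low, the log2 fold change depends on the pseudocount, with -2.41 at 0.1 and -0.76 at 1.

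None of the other 18 kinesins of this role passed the test by limma. By the represented transcripts 1, Kif16b, had an unadjusted p below 0.05. The relative of Kif26b, Kif26a, had 14 reads in each group, and Kif16b, an endosome motor, was slightly higher in EtOH livers at 4.63 ± 0.56 and 5.2 ± 0.353 RPKM (log2 fold change 0.24, limma adjusted p = 0.19). Kif1c, which carries vesicles, had 23.3 ± 2.21 and 21.1 ± 2.34 RPKM with a log2 fold change of 0.004 ± 0.08, whose sign changed with the scaling (-0.14 without normalization). Over the 19 genes the median was -0.03, with 9 above 0 and 10 below.

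Kif1b, a motor of mitochondria and vesicle precursors, had by far the highest value of the kinesins, 142.1 ± 16.4 and 114.6 ± 16.8 RPKM (SD, n = 6 each, log2 fold change -0.16 ± 0.11, limma adjusted p = 0.55). This value comes from a short listed transcript of 1540 nucleotides (chromosome 5, 166102100 to 166117712) that does not overlap the next highest Kif1b transcripts, of 5644 and 3807 nucleotides, which end at 166089364 and 166031308 and had 8.46 and 11.2, and 5.28 and 6.49 RPKM. The transcripts of 5644 and 3807 nucleotides had log2 fold changes of 0.54 ± 0.17 and 0.42 ± 0.18 (SE, limma adjusted p = 0.12 and 0.29). Both were higher in EtOH livers at an unadjusted p below 0.05, unlike the short transcript. A Kif1b transcript of 8475 nucleotides (165957807 to 166142541) spans the short one, at 0.889 and 0.444 RPKM. Another, at 0 in every liver, ends at the same base as the short one. Pex14, listed across this stretch, had 8 and 7.04 RPKM. In RefSeq, Dffa, Cort, Cenps and Pgd lie between Pex14 and Kif1b, with Pgd next to Kif1b. No listed transcript carries the name Pgd. Which gene the short transcript belongs to was not tested. Its value is therefore given under the listed name and not as a level of the kinesin.

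**Figure D3:**
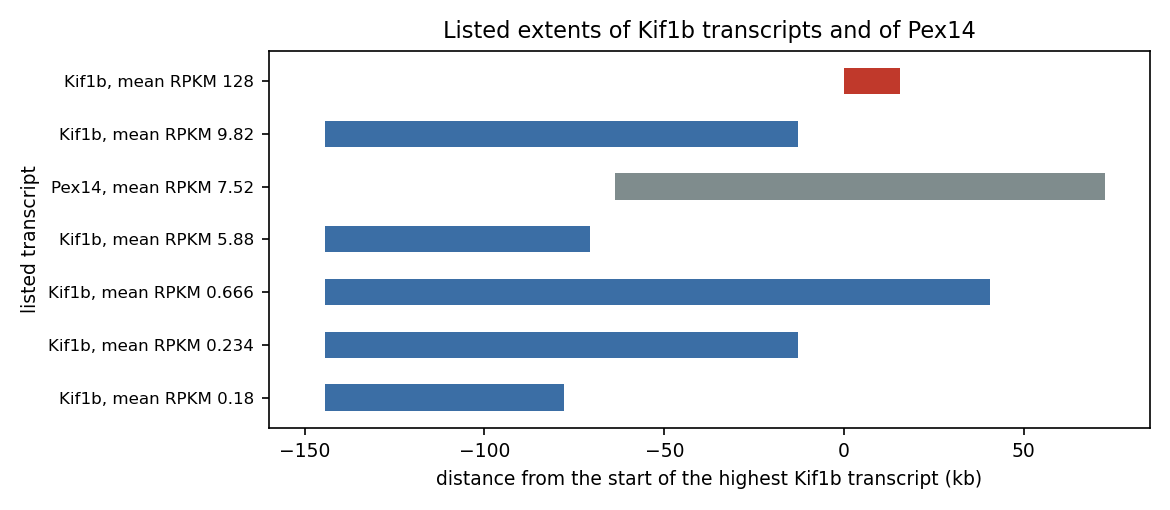
Extent of the listed Kif1b transcripts with a mean RPKM above 0.1 and of Pex14, in kb from the start of the Kif1b transcript with the highest RPKM (red, mean 128.4). The red transcript lies apart from the Kif1b transcripts with a mean RPKM of 9.82 and 5.88, and inside the extents of Pex14 and of a Kif1b transcript with a mean of 0.667.

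The partners of these motors did not give a call. Of 20 tested kinesin light chain, dynein and dynactin genes, 0 were called by limma, 1 was higher and 4 lower at an unadjusted p below 0.05, and the median was 0.01. Dynll2, a dynein light chain, was the highest at 68.9 ± 4.45 and 59.7 ± 4.16 RPKM (limma adjusted p = 0.73).

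Several markers of other liver cells were higher in EtOH livers as well, and their part in the results above was not tested. Of the Kupffer cell markers 7 of 11 were tested, all 7 had a log2 fold change above 0, and Vsig4, Clec4f and Cd163 were called, with log2 fold changes of 0.46, 0.48 and 0.66 (limma adjusted p = 0.0034, 0.025 and 0.043). Their summed RPKM was 168.3 to 254 in controls and 218.7 to 261.6 in EtOH livers. Of 12 leukocyte markers, 9 had a log2 fold change above 0 and 3 below, over a range of -0.5 to 0.82. Called among them were Itgal, which rose from 2.44 ± 0.427 to 4.22 ± 0.616 RPKM, and Cd79a (limma adjusted p = 0.02 and 0.039). Cd79a, a B-cell receptor chain at 0 in all controls, was at 0.433 ± 0.271 RPKM in EtOH livers. The T-cell marker Cd3e was at 0.665 and 0.751 RPKM (limma adjusted p = 0.98), and the leukocyte sum was 9.21 to 14.2 in controls and 11.07 to 17.4 in EtOH livers. The leukocyte sums of EtOH animals 1 to 6 were 17.4, 11.07, 17.3, 15.2, 16.9 and 11.2, and animals 1 and 3, with the highest division sums, had the highest leukocyte sums. The other animals did not keep this order. EtOH animal 2, with a division sum of 17.7, had the lowest leukocyte sum of its group, and animal 5, with 9.6, had 16.9.

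Stellate cell markers were above 0 in log2 fold change for 8 of 8, with Col1a2, a collagen chain, called (2.69 ± 0.453 and 4.45 ± 0.682 RPKM, limma adjusted p = 0.028) and a sum of 11.2 to 16.4 in controls and 14.2 to 30.2 in EtOH livers. Of 5 tested endothelial markers all were above 0 and Cdh5 was called (3.78 and 5.08 RPKM, limma adjusted p = 0.049), with sums of 28 to 36.2 and 33.5 to 46.5. The endothelial sums of EtOH animals 1 to 6 were 46.5, 36.3, 35.3, 37.9, 33.5 and 38.6. EtOH animal 1, the highest in division genes, was the highest of all 12 livers in the endothelial and stellate sums too. The next highest endothelial sum, 38.6, was that of EtOH animal 6, which had the lowest division sum of its group (8.74). EtOH animal 3, with a division sum of 19.7, had an endothelial sum of 35.3. Of 7 tested hepatocyte markers 5 were above 0 and 2 below, with a median of 0.005, and Cps1 was called (585.8 and 849.7 RPKM, limma adjusted p = 0.022). None of the 4 tested cholangiocyte and 4 tested erythroid markers was called by limma, with 0 and 1 higher at an unadjusted p below 0.05. Epcam stood at 4.58 and 4.19 RPKM and Hbb at 197.3 and 223.9, and the sums were 4.37 to 8.27 and 3.9 to 7.87 for cholangiocyte and 196 to 402.5 and 244.7 to 435.8 for erythroid markers. Krt19, a marker of bile ducts, was at 1.49 and 1.67 RPKM.

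Most division genes rest on few reads. Of the 92 genes, 19 had fewer than 30 reads over all 12 livers and 32 a mean RPKM below 0.5. Control livers had 74 to 80 of the 92 genes above 0 and EtOH livers 82 to 86, which is given without a test, since members were chosen on being above 0 and the EtOH libraries were deeper. The deeper EtOH libraries also had more transcripts above 0 in all, 15928 to 16574 against 15378 to 15957. The RPKM is scaled to depth. Limma voom on the same recovered reads called Ccnb1, Rrm2 and Kif26b as well, with log2 fold changes of 2.72, 2.1 and -2.87. Since depth went with group, its part in these calls was not tested. Counting intervals and limits of this kind cover counting error only.

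**Figure D4:**
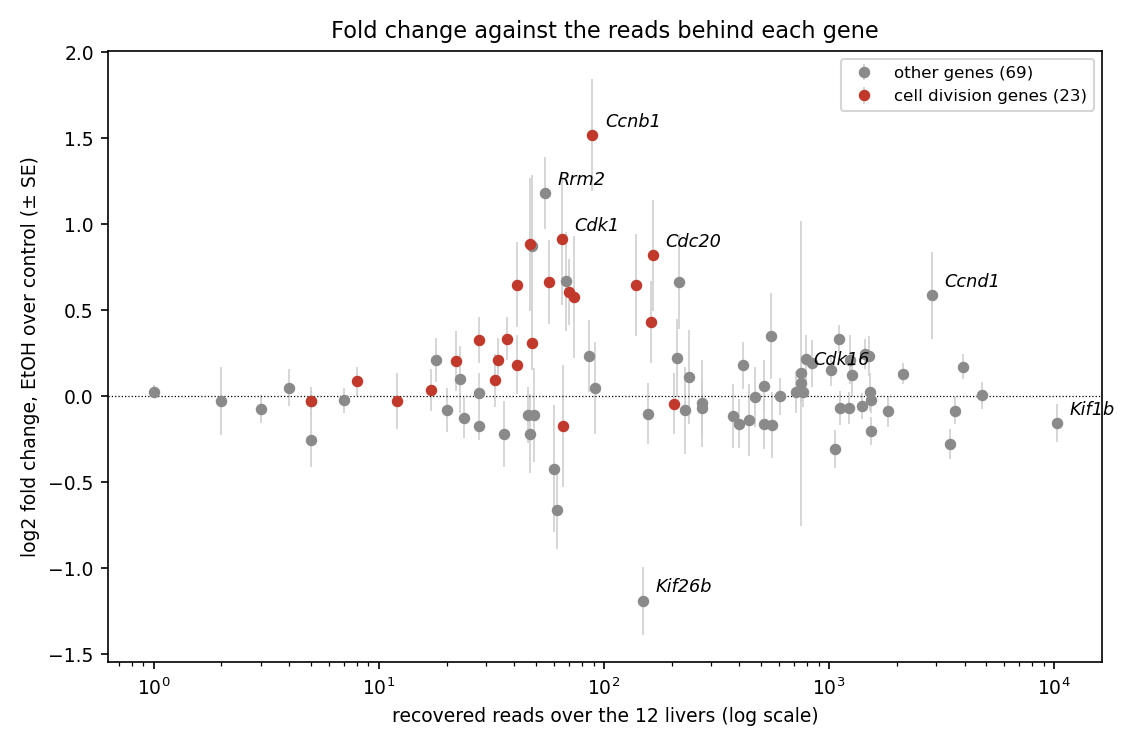
Log2 fold change (EtOH over control, with its standard error) of each of the 92 genes against the reads recovered over the 12 livers (log axis), with the 23 cell division genes in red. Division genes lie at up to 204 reads, 19 of the 23 above 0, and genes with more reads lie on both sides, with Ccnd1 at 0.59, Cdkn1b at 0.33, Cdk2ap2 at -0.28 and Cdc34 at -0.31.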

How the data were processed

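Livers were snap frozen, poly(A) RNA was made into libraries with an Illumina TruSeq kit, and 1 library per rat was sequenced in 101-nucleotide paired-end reads, pooled in a single lane. Mapping was done by the authors in CLCbio Genomics Workbench, and the deposited values are RPKM per liver, that is, reads scaled to transcript length and library size. The build of the listed positions is not given in the sources at hand. The same table holds the authors' fold change, test statistic, P and FDR, which were not used.

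A pseudocount of 0.5 was added to each RPKM, the log2 values were quantile normalized across livers, and 6 EtOH rats were tested against 6 control rats with limma 3.58.1 (R 4.3.3, mean-variance trend, two-sided, Benjamini-Hochberg over 21718 transcripts, threshold 0.05), without a filter on low values. Other steps used Python 3.11.15 with scipy 1.17.1. Single values were compared by exact permutation over animals. Whole reads were recovered as the smallest whole numbers within 0.01 read of the depth-corrected ratios, for all 21718 transcripts. Recovered reads count only those assigned to listed transcripts, and for the 2052 transcripts above 0 in 1 liver they are a minimum. The fit was also run on simulated data. The outcome of that run is not given here, so it is no evidence for the calls of Ccnb1, Rrm2 and Kif26b, which rest on few reads.

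Members follow the name rule, and the members, their 15 roles and the 12 gene lists were chosen with earlier results of these data known. Of 212 list genes 174 were tested. Values of some list genes are not reported here. Members are named if called, if their groups do not overlap at a mean RPKM of at least 0.5, if the most abundant or the smallest in p of their role, if among the 10 most abundant, or if MCM subunits, CDK inhibitors or given by full name. Every other gene named in the text was chosen after its values were seen. Same-numbered animals of the groups did not deviate together (correlations from -0.0669 to 0.0322), so the numbers were not treated as pairs. Alternatives were pseudocounts of 0.1 and 1, no normalization, median-ratio scaling, square-root values with limma and with the unmoderated pooled test of the study's methods, minimum mean RPKM of 0.1 and 1, no trend, a replicate block on the animal number, limma voom on recovered reads, and each liver left out in turn. Promoter windows came from RefSeq (GRCr8).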

Additional observations from a re-analysis of the deposited data

Results flagged for a closer look

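In 8 of the 88 groups of 6 livers looked at, 1 liver stood apart from the other 5 of its group by more than the critical gap. Chance flags about 1 group in 20. In the EtOH group these were Kif23 in animal 1 (0.637 RPKM, next 0.205), Aurkb in animal 3 (1.75, next 0.799), Mcm3ap in animal 2 (4.42, next 4.09), Cdk105 in animal 3, which was low (14.3, next 18.3), Cdc34 in animal 6, also low (12.3, next 16), and Cdkn2a in animal 1 (0.449, the others at 0). In the control group they were Cdk7 in animal 4 (14.03 RPKM, next 10.7) and Cdkn2a in animal 6 (0.447, the others at 0). Each Cdkn2a value is a single read.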

How the results depend on the processing

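The count of 3 called genes was 5 without normalization between livers (Cdk2ap2 and Cdc34 added), 1 with a minimum mean RPKM of 1 (Cdkn1b, the others falling below that limit) and 0 with the animal number as a replicate block (limma, where 7 of the 23 division genes were still higher at an unadjusted p below 0.05 and 113 of all transcripts were called). The count ranged from 2 to 4 when 1 liver was left out. Kif26b and Rrm2 were called in each of the 12 fits without 1 liver and were lost with the replicate block (limma adjusted p = 0.066 and 0.089) and below the minimum mean RPKM of 1 could not be tested. Ccnb1 was also lost in the unmoderated pooled test (adjusted p = 0.08). The 23 division genes had 18 to 22 log2 fold changes above 0 in every alternative that kept them all. A minimum mean RPKM of 0.1 kept 20 of them, with 17 above 0. A minimum of 1 kept only 3 (Cdc20, Aurka and Aurkc), with 1 above 0 and a median of -0.07, so most of the pattern lies in genes below that level. Counts of all called transcripts ran from 113 to 860 in the fits with 12 livers and from 212 (without EtOH animal 2) to 656 (without control 6) in those with 11. Some uncalled genes near 0 changed sign. Without normalization these were Cdkn2aipnl (-0.0916), Cdkn2a (0.000326), Pcna (-0.0469), Cdk7 (-0.112), Cdk105 (-0.00148) and Kif1c (-0.145). With median-ratio scaling they were Cdkn2aipnl (-0.00538), Mcm2 (0.0149), Cdk7 (-0.0242), Aurka (0.042) and Kif1c (-0.0545), with voom Cdkn2aipnl (-0.0113), Mcm2 (0.000415), Cdk7 (-0.0213), Aurka (0.0622) and Kif1c (-0.0649), and on square-root values, with either test, Cdk7 (-0.00541). Over the fits without 1 liver the log2 fold change crossed 0 for Cdkn2aipnl (-0.0469 to 0.0984), Cdkn1a (-0.209 to 0.128), Cdkn2a (-0.163 to 0.137), Cdc14b (-0.00547 to 0.125), Pcna (-0.000203 to 0.132), Mcm2 (-0.113 to 0.00961), Cdk7 (-0.0402 to 0.0872), Aurka (-0.122 to 0.0255), Cdk9 (-0.0632 to 0.00794) and Kif1c (-0.0407 to 0.0463). The cause of these changes was not tested. Depth limits the rare genes, since control 3, with no read of the represented Ccnb1 transcript, could hold up to 0.597 RPKM of it.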
